A study of Pinus pinaster with 6 samples.

Results

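A cDNA microarray of maritime pine (Pinus pinaster) held 4224 probe IDs. Of these, 61 gave ratios of crown and base xylem that had opposite signs in different trees. The 61 make up 1.44% of all IDs. The deposited signs were used, and 50 of the 61 were opposite only in pairs with tree 1, whose signs can be read either way. All 61 were selected on the log2 ratios of the arrays themselves. After the median of the ID's plate had been subtracted on each array and the technical arrays of a tree averaged, a member had a tree mean of 0.3 or higher in at least 1 tree and of -0.3 or lower in at least 1 other. Both technical arrays of each of those trees also had to agree in sign. Opposite sign is therefore what chose these IDs, and no test of it is given.

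The study hybridised crown and base xylem RNA of the same tree together on 2-colour arrays, with 3 field-grown trees and 2 technical arrays for each. Tree 1 was 29 years old and cut in 2005, with its crown RNA labelled in Cy5. Tree 2, at 31 years and also cut in 2005, and tree 3, at 28 years and cut in 2007, had the dyes the other way round, with the crown in Cy3. Base RNA took the remaining dye on every array. Crown xylem came from the uppermost internodes and base xylem from the lowest part of the trunk, both scraped off after bark and phloem had been peeled away. The tree is the unit of replication, so the number of independent samples is 3. No label says that any tree was treated.

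Developing xylem is the layer inside the cambium where new tracheids enlarge, lay down a secondary wall of cellulose, hemicellulose and lignin, and die. Wood formed within the living crown is generally juvenile, with shorter tracheids and a wider microfibril angle, and wood formed at the base of an adult conifer is mature. No file or table used here names the gene behind an ID, so none of the 61 can be given a function, and the lists of lignin, cell wall, stress and tissue marker genes could not be applied.

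The sign of the ratio is not settled by the labels. The titles put crown first on all arrays, which would make a positive value higher expression in the crown. The tree means correlated positively in all pairs, and the deposited signs were used. After plate recentring, Pearson's r across IDs was 0.687 between trees 1 and 2. It was 0.731 between trees 1 and 3, and 0.748 in the remaining pair. Tree 1 stands apart in 3 ways. Its dyes were the other way round, its values are written with more than 6 digits in 99.5% and 99.3% of cells against 0% on the other arrays, and its tree means had an SD over IDs of 0.440, against 0.364 in tree 2 and 0.371 in tree 3. These cannot be told apart from the tree itself. Technical arrays of a tree correlated with r from 0.939 to 0.962.

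Tree 1 was the tree most often alone in sign among the 61 IDs. It was alone in 34 of them (55.7%), tree 2 in 18 (29.5%) and tree 3 in 9 (14.8%). In the commonest pattern, with 26 IDs, tree 1 was positive and the others negative. The reverse, tree 1 negative alone, was found at 8 IDs. Tree 2 was negative alone at 13 and positive alone at 5 IDs, and tree 3 was negative alone at 6 and positive alone at 3. At a threshold of 0.5 the lead of tree 1 was gone, with 2, 3 and 2 IDs for trees 1, 2 and 3. With arrays scaled to a common spread, which lessens the wider ratios of tree 1, the counts were 26, 22 and 11 of 59 IDs. Over all 4224 IDs, whatever their size, tree 1 was alone in sign at 879, tree 2 at 715 and tree 3 at 418, and 2212 had 1 sign in all trees. Tree 1 was positive alone at 459 of these IDs and negative alone at 420. For tree 2 these counts were 397 and 318, and for tree 3 they were 229 and 189. Tree means of 0.3 or higher were found at 913, 529 and 686 IDs in trees 1, 2 and 3. Means of -0.3 or lower were found at 593, 527 and 349.

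**Figure D1:**
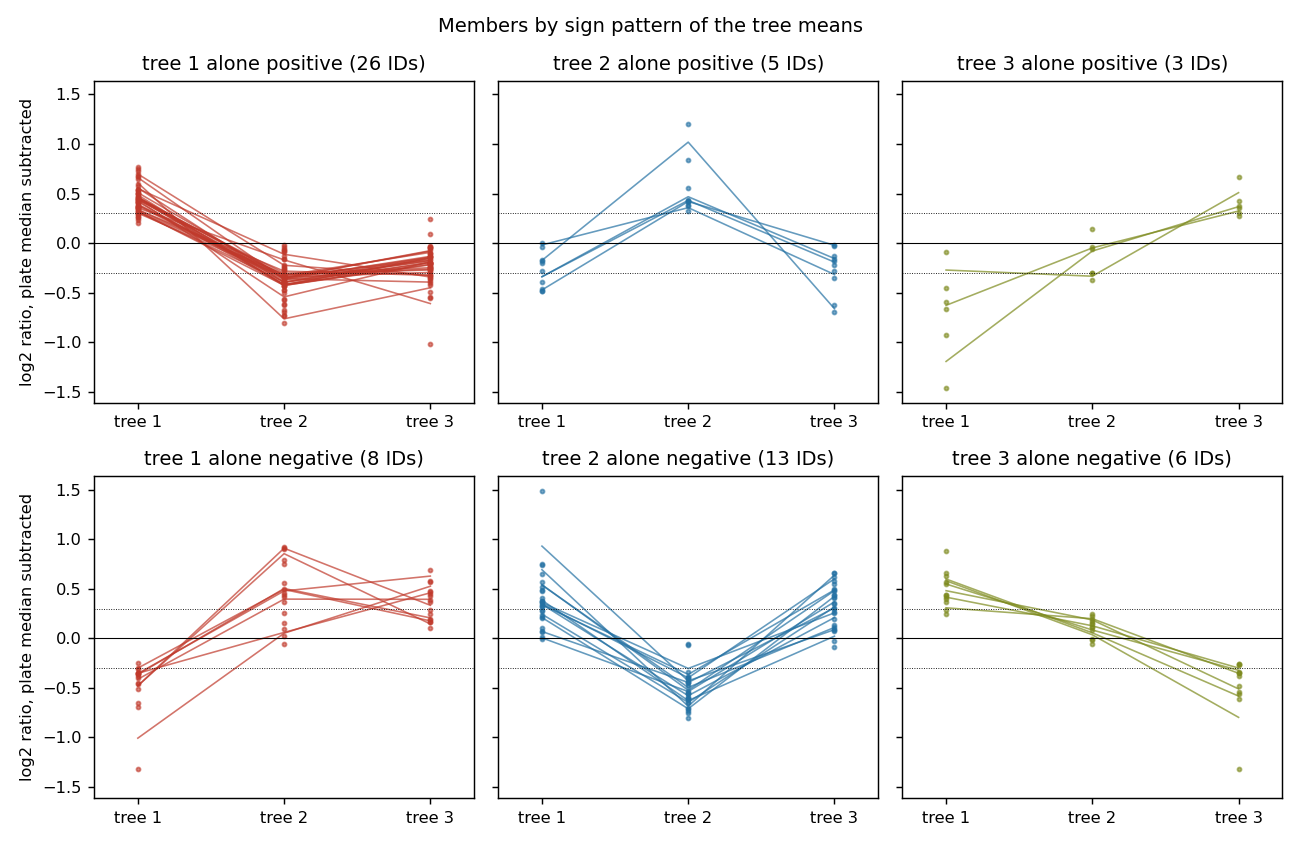
The 61 members by sign pattern, with the log2 ratio after subtraction of the plate median on the vertical axis and the tree on the horizontal axis. Lines join the tree means of an ID, points are its technical arrays and dotted lines mark 0.3 and -0.3; the panel with tree 1 alone positive holds 26 IDs and that with tree 3 alone positive holds 3.

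Opposition was most frequent between trees 1 and 2, which share a harvest year but not a dye order. With 3 trees, dye order, harvest year, age and spread of the ratios cannot be told apart from the tree itself. Trees 1 and 2 were opposite at 40 IDs, of which 31 were positive in tree 1 and 9 positive in tree 2. Trees 1 and 3, which differ in both dye order and harvest year, were opposite at 19 IDs, 12 of them positive in tree 1. Trees 2 and 3, which share the dye order and differ in harvest year, were opposite at 11 IDs, 9 of them positive in tree 3. The pairs share trees, so 9 IDs were opposite in 2 pairs and 52 in 1 pair.

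These counts were small beside the IDs that moved together. Trees 1 and 2 both passed 0.3 in size at 680 IDs. The same held at 740 IDs in the pair of trees 1 and 3, and at 644 in the pair of trees 2 and 3. The opposite IDs were 5.88%, 2.57% and 1.71% of these, and nearly all of the remainder had the same sign, with 639, 721 and 633 IDs.

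**Figure D2:**
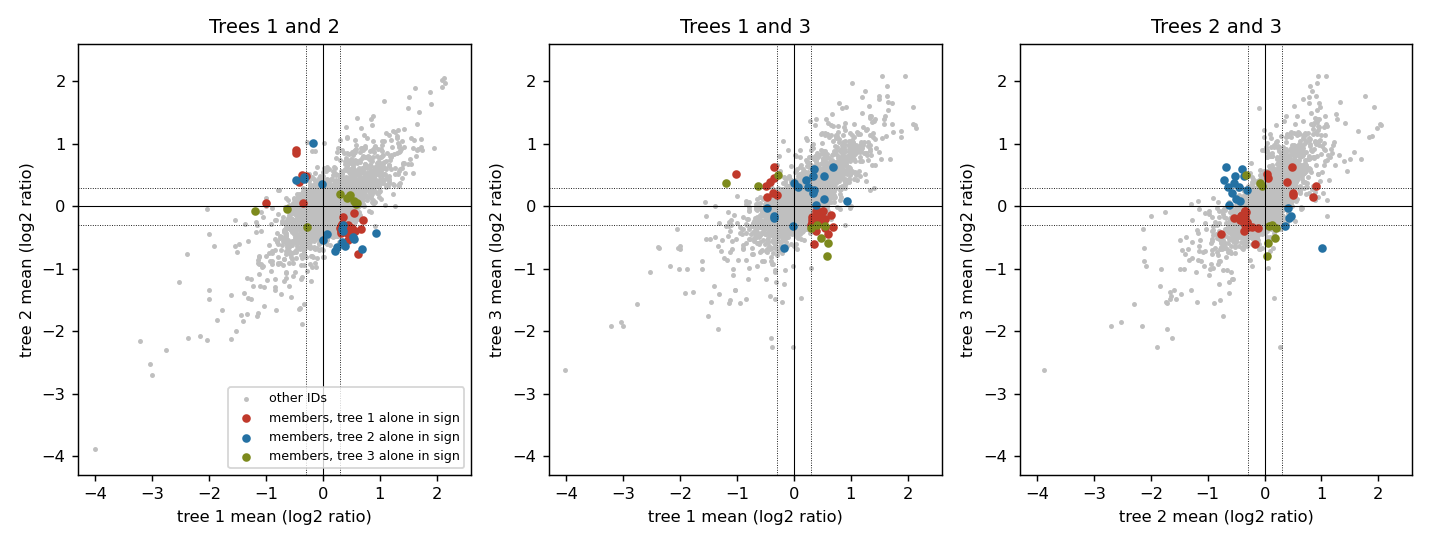
Tree means of all 4224 IDs for each pair of trees, as log2 ratios after subtraction of the plate median, with members coloured by the tree that is alone in sign and the dotted lines at 0.3 and -0.3. Opposite IDs lie in the upper left and lower right corners, with 40, 19 and 11 IDs in the panels from left to right, beside a cloud of IDs that runs along the diagonal.

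The 50 IDs that were opposite only in pairs with tree 1 depend on how its signs are read. If the ratios of tree 1 had been deposited unturned and were turned here, the rule would pick 864 IDs, or 20.5% of all, and 11 of the 61 would be among them. Those 11 are the IDs opposite between trees 2 and 3, which carry like dyes, so their opposition does not depend on the reading. Of the 61, the 34 in which tree 1 was alone would then have 1 sign in all trees.

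With tree 1 positive alone, the tree 1 mean ran from 0.30 to 0.70 with a median of 0.44, the tree 2 mean from -0.76 to -0.11 and the tree 3 mean from -0.61 to -0.08. Q1N13 had the largest margin on both sides of 0 in this pattern. Its log2 ratio was 0.54 and 0.68 in tree 1, -0.72 and -0.80 in tree 2, and -0.34 and -0.56 in tree 3. The arrays of tree 1 lay above 0 and the other 4 below -0.3, without overlap, and the tree 1 and tree 2 means were 2.59-fold apart. Q2N1 gave 0.43 ± 0.013 in tree 1, -0.54 ± 0.10 in tree 2 and -0.19 ± 0.024 in tree 3 (SD, n = 2 technical arrays). Its tree 1 value owes part of its size to the plate median, since it was 0.25 before subtraction, which is below the bar of the rule.

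With tree 1 negative alone, the tree 1 mean ran from -1.01 to -0.30, and the median distance of highest and lowest tree was 0.93 on the log2 scale, against 0.82 in the reverse pattern; this difference was not tested. Q9L12 was the largest by margin, with -1.32 and -0.70 in tree 1, 0.15 and -0.053 in tree 2 and 0.48 and 0.57 in tree 3. Trees 1 and 3 were opposed by 2.89-fold and tree 2 lay around 0, with 1 array on each side of it. In Q3L8 the opposition was between trees 1 and 2, at -0.48 ± 0.24 against 0.91 ± 0.0067, and tree 3 sided with tree 2 at 0.33 ± 0.069 (SD, n = 2 technical arrays).

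The widest separation among all members was in a pattern of tree 2. Q3L6 read 0.83 and 1.20 in tree 2, -0.63 and -0.70 in tree 3, and -0.17 and -0.18 in tree 1. Trees 2 and 3 were 1.68 apart on the log2 scale, or 3.20-fold, and both technical arrays of each tree lay well on its side of 0. These trees have the same dye order, so the reading of tree 1 does not enter their opposition. Q8G7, the other large one with tree 2 positive alone, read 0.42 ± 0.0015 in tree 2 and -0.47 ± 0.018 in tree 1 (SD, n = 2 technical arrays), with tree 3 close to 0 at -0.023. Before subtraction of the plate median tree 3 was at 0.036, on the other side of 0, so tree 1 was then negative alone.

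Tree 2 negative alone, found at 13 IDs, had its clearest case in Q5L2. The ratio was 0.65 and 0.73 in tree 1, -0.76 and -0.61 in tree 2 and 0.61 and 0.66 in tree 3. All 4 arrays of trees 1 and 3 lay above 0.6 and both arrays of tree 2 below -0.6. Q5B3, from the same plate, had the same form at a smaller size, with 0.54 ± 0.034, -0.52 ± 0.16 and 0.48 ± 0.0060 in trees 1, 2 and 3 (SD, n = 2 technical arrays). In both IDs, with tree 1 as deposited, tree 2 was opposed to each of the other trees. It shares its harvest year with tree 1 and its dye order with tree 3. With tree 1 turned, tree 2 would still be opposed to tree 3 but no longer to tree 1.

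Tree 3, the one cut in 2007, was alone least often. With tree 3 positive, Q11E21 gave -0.93 and -1.46 in tree 1, 0.14 and -0.30 in tree 2 and 0.31 and 0.43 in tree 3. The technical arrays of tree 2 disagreed in sign, so that only trees 1 and 3 are placed. In Q8J19, trees 2 and 3 were opposed at -0.33 ± 0.052 and 0.51 ± 0.22, and the arrays of tree 1 lay at -0.45 and -0.095 (SD, n = 2 technical arrays). With tree 3 negative, Q1O15 read 0.57 and 0.62 in tree 1, 0.12 and -0.0047 in tree 2 and -0.56 and -0.61 in tree 3. Both arrays of tree 2 lay between those of the other trees, 1 on each side of 0. Q7E2 was less well measured: its tree 1 arrays were 0.28 and 0.88 and its tree 3 arrays -0.27 and -1.32.

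**Figure D3:**
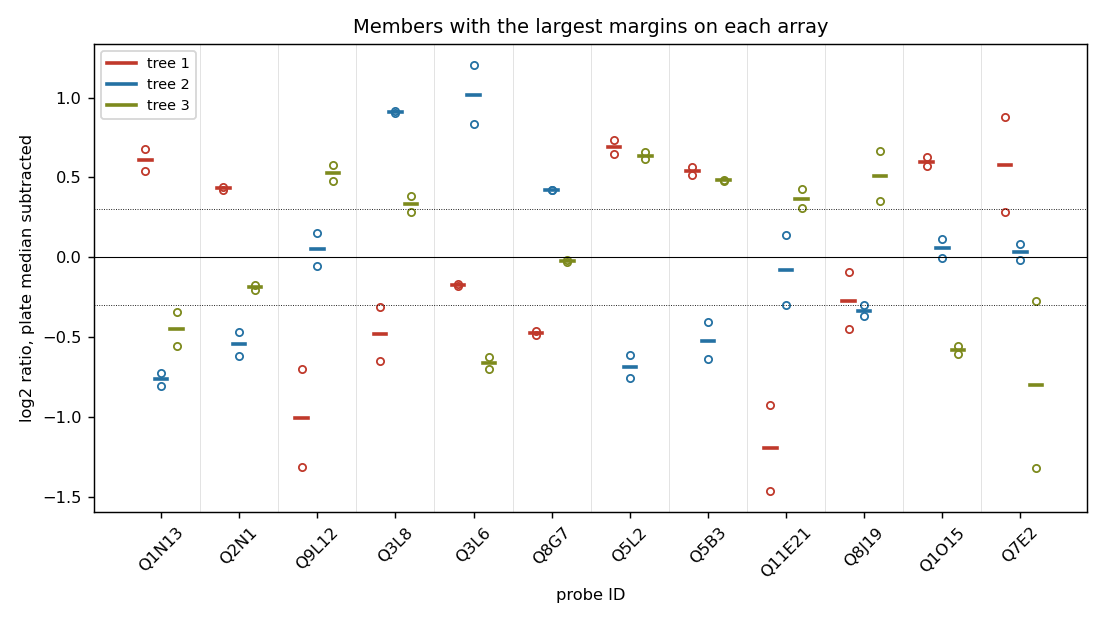
Log2 ratios after subtraction of the plate median for the 12 members with the largest margins, 2 for each sign pattern. Open circles are technical arrays, bars are tree means and dotted lines mark 0.3 and -0.3; the tree 2 and tree 3 values of Q3L6 are 1.68 apart, and the tree 3 arrays of Q7E2 lie at -0.27 and -1.32.

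The mean of the tree between the extremes was within 0.1 of 0 in 16 members, from 0.1 to 0.3 in size in 36 and past 0.3 in 9. Tree 3 was in the middle in 36 members, tree 2 in 16 and tree 1 in 9. In 10 members the technical arrays of the middle tree had both signs, so its side of 0, and with it the sign pattern, is not fixed there. In some others it depended on the plate median. The middle tree of Q8G7, Q9K19 and Q7F19 had the same sign on both arrays, but its mean had the other sign in the deposited values.

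The distance from the lowest to the highest tree ran from 0.64 to 1.68 on the log2 scale over the members, with a median of 0.87, or 1.83-fold, against a median of 0.28 over all IDs. It reached 1 or more in 16 members. The rule demands at least 0.6, so the contrast with all IDs is built in. Distances of this size also occur without a change of sign: of 138 IDs with a distance of at least the members' median, 76 had 1 sign in all 3 trees. The mean over the trees was within 0.1 of 0 in 40 of the 61 members (65.6%) and in 41.7% of all IDs. The demand for opposite signs itself draws this mean toward 0.

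The technical arrays of a tree lay farther apart in the members than over all IDs, by the median. Members were chosen for large values on these same arrays, so they and all IDs are not alike in size of ratio. The difference in gap was not tested. The gap between the arrays of a tree was 0.105, 0.10 and 0.097 in trees 1, 2 and 3 over the members, against 0.065, 0.068 and 0.057 over all IDs. In 18 members the gap exceeded 0.3 in the highest or the lowest tree. The largest gap was 1.12, in tree 1. All 4 technical arrays of an opposed pair of trees were past 0.3 in 28 members.

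At the threshold, the member just inside was Q10I14, with 0.41 in tree 1 and -0.30 in tree 3, where the limiting value was 0.3002 in size. Just outside was Q10G1, with -0.2991 in tree 2 and 0.33 in tree 3. Without subtraction of plate medians their order was reversed, since Q10I14 was then at 0.29 in tree 1 and Q10G1 at -0.32 in tree 2.

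The study's own question, whether crown and base differ over the trees, was fitted on all IDs with limma after plate recentring, as the mean of the 3 trees against 0. Of all IDs, 16.8% had an adjusted p under 0.05, and of the 61 members 0 did. An unadjusted p under 0.05 was found at 1298 of 4224 IDs and at 0 members. The lowest adjusted p of the members was 0.458 (limma). Signs that oppose each other give a mean near 0, so the 0 among the members follows from the rule. When the trees were compared with each other against the technical spread, an F test in limma passed at 63.8% of all IDs and at 61 of 61 members. That test treats technical arrays as replicates, and its p-values measure technical spread alone. Most IDs differed between trees by that yardstick, and the members were chosen for such a difference, so nothing is read from their count.

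The position of the members on the printing plates was examined next, since apart from the plate median the rule did not use it. Each of the 11 plates holds 384 IDs. Plate 2 held the most members, 11 (2.86%), and plates 5 and 6 held 2 each (0.521%). Of the 11 on plate 2, 10 were of the pattern with tree 1 positive alone, against 4 each on plates 4 and 11, 3 each on plates 1 and 10, and 0 or 1 on the others. The median of plate 2 in tree 1 was -0.18, the lowest of any plate and tree, and subtracting it raises every ID of that plate in tree 1. With the deposited values plate 2 held 4 IDs of any pattern by the same rule and plate 3 held 13, where the tree 1 median of 0.11 lay above those of trees 2 and 3, at -0.14 and -0.094.

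**Figure D4:**
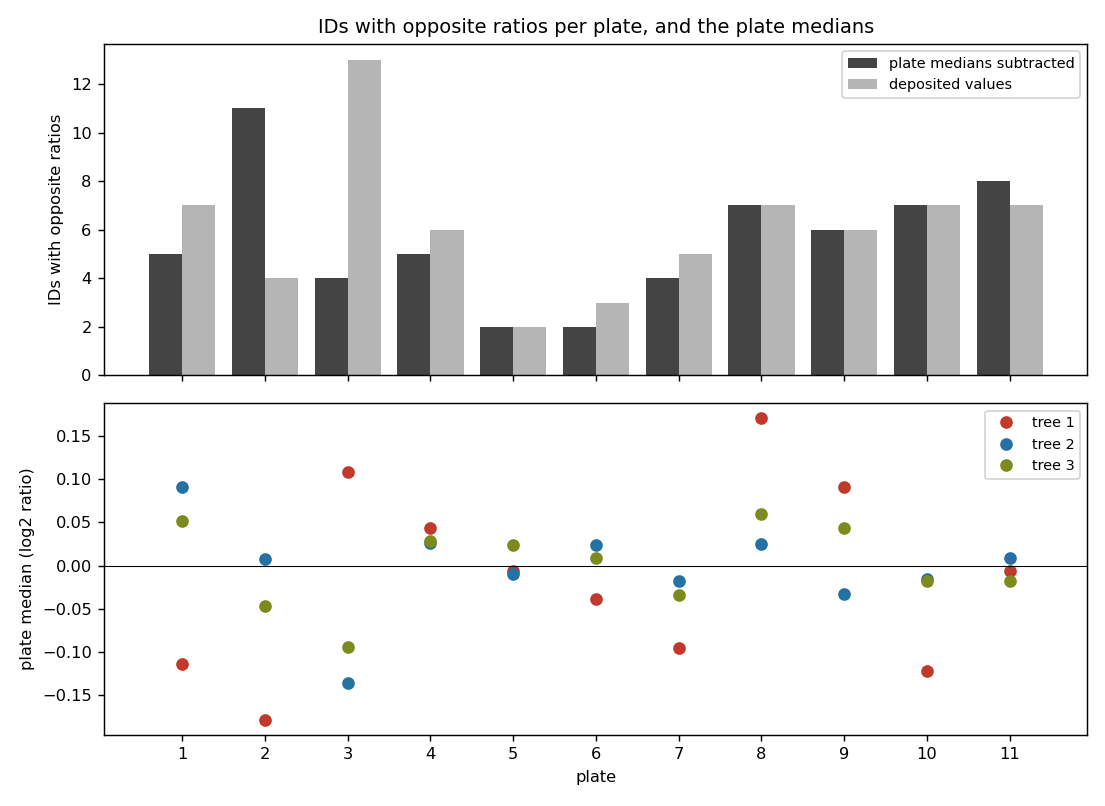
Above, IDs with opposite ratios on each of the 11 plates after subtraction of plate medians (dark bars) and with the deposited values (light bars). Below, the median log2 ratio of each plate in each tree; plate 2 has the lowest tree 1 median, -0.18, and changes from 4 to 11 IDs, and plate 3 changes from 13 to 4.

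Without recentring, 67 IDs met the rule, of which 45 were shared with the 61 (73.8% of the 61 and 67.2% of the 67). Of the 16 members found only after recentring, 12 had tree 1 alone. The tree 1 median lay below those of both other trees on 5 plates (1920 IDs). There tree 1 was positive alone at 18 members and negative alone at 1. On the 4 plates where it lay above both (1536 IDs), these counts were 4 and 5. On the remaining 2 plates (768 IDs), where it lay between them, they were 4 and 2. With the deposited values the counts were 9 and 4, 13 and 4, and 3 and 2. The members were chosen after these medians had been subtracted, so their counts are not independent of the medians.

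Some members sat together within a plate, which was noticed in the list of members and then measured. All 4 members of plate 4 with tree 1 positive alone lay in column 15, in rows B, L, N and P. In plate 11, 3 such members lay in column 6, in rows D, J and P. In the 4 of plate 4, only the second array of tree 2 was past -0.3. The tree 2 arrays read -0.076 and -0.63 in Q4B15 and -0.27 and -0.47 in Q4L15. They read -0.059 and -0.73 in Q4N15, and -0.16 and -0.69 in Q4P15. A plate column in alternate rows, called a strip here, has 8 wells, and there are 528 of them. The rule chose these members for a high tree 1 value, so only the wells of the strip that hold no member are described. In plate 4, column 15, rows B to P, the median of tree 1 minus the mean of trees 2 and 3 was 0.28 over 4 such wells, and 10 of the 528 strips had a higher one, 9 of them with no member at all. These wells did not have the members' sign pattern: their tree medians were 0.20, -0.30 and 0.25 in trees 1, 2 and 3, so that tree 3 was as high as tree 1 and tree 2 was low alone. In plate 11, column 6, rows B to P, the median was 0.40 over 5 such wells, and 2 strips, neither with a member, had a higher one. There the tree medians were 0.13, -0.28 and -0.20, with tree 1 positive alone as in the members.

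Over the whole set, 15 members (24.6%) shared a strip with another member, whereas 8.76% of all IDs had another member in theirs. The wells without members in a member's strip differed between its highest and lowest tree in the same direction at 42 of 61 members (68.9%), with a median of 0.069 on the log2 scale. For all IDs, taken in the same way, the share was 58.9% and the median 0.027. By pattern it was 24 of 34 with tree 1 alone, 13 of 18 with tree 2 alone and 5 of 9 with tree 3 alone. Among the 16 members whose trees lay at least 1 apart it was 9. Whether the strips match a printing pin or block was not tested, nor whether neighbouring wells hold clones of 1 transcript.

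Part of the set met the rule with plates recentred, with strips recentred and with the deposited values. When each strip was recentred on its own median in place of the plate, a choice made after seeing the data that also removes part of any real difference shared by the 8 wells, 36 IDs met the rule and 22 of them were among the 61. Of these 22, tree 1 was alone in 12, tree 2 in 6 and tree 3 in 4, and 18 also met the rule with the deposited values. Q1N13, Q3L8, Q3L6, Q5L2, Q5B3, Q11E21, Q8J19, Q1O15 and Q7E2 met it in these 3 ways. Q2N1 did not with the deposited values, and Q9L12 and Q8G7 did not with strips recentred. In the strip of Q3L6, the wells without members differed between trees 2 and 3 by a median of -0.0062, against 1.68 for the ID itself. For Q5L2 the same comparison gave 0.28 against 1.38. Over the 14 named IDs the median of such wells ran from -0.20 in Q11E21 to 0.28 in Q5L2. The members were chosen for a large difference, so the contrast with unselected wells is built in.

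Wells at the plate edge held 14 members (23.0%), beside 19.8% of all IDs.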

How the data were processed

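The authors deposited 1 value for each of 4224 IDs on each of 6 arrays, with 0 missing. They are read here as log2 ratios of both channels, because limma 2.14.5, which gives such ratios, is named with R 2.7.1 in the submitters' processing notes. No source used here states the log base, background correction, normalization or direction. Array medians lay between -0.018 and 0.0023. The channels were not analysed singly, and precision is limited by how few arrays there are.

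Plate medians were subtracted per array (the plate is the part of the ID before the well), technical arrays were averaged per tree and the rule was applied. Members and lists were chosen with earlier results of these data known. Named IDs are the 2 members of each sign pattern with the largest margin, the smaller of the highest tree mean and the size of the lowest, and the IDs on either side of the threshold. IDs in the sections on plate positions were named after their values were seen. Fits over all IDs used limma 3.58.1 (lmFit, eBayes) under R 4.3.3, two-sided, with Benjamini-Hochberg adjustment. The fits and the rule were also run on simulated data as a check of the code. The simulation of the rule held plate shifts but no strip differences, so it does not show how the rule behaves with them. Figures were drawn with matplotlib 3.10.9. The alternatives were other centrings and scalings, thresholds, demands on technical arrays, the other reading of the signs, a replicate block and each tree or array left out.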

Additional observations from a re-analysis of the deposited data

Results flagged for a closer look

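In 14 named IDs every array of the highest tree lay above 0 and every array of the lowest tree below it. This follows from the rule for the members, and the difference was not tested. On the log2 scale, tree 1 exceeded tree 2 by 1.37 in Q1N13, 0.97 in Q2N1, 1.38 in Q5L2 and 1.06 in Q5B3. Tree 2 exceeded tree 1 by 1.39 in Q3L8 and 0.89 in Q8G7, and tree 3 by 1.68 in Q3L6. Tree 3 exceeded tree 1 by 1.53 in Q9L12 and 1.56 in Q11E21, and tree 2 by 0.84 in Q8J19 and by 0.63 in Q10G1, which is no member. Tree 1 exceeded tree 3 by 1.18 in Q1O15, 1.38 in Q7E2 and 0.72 in Q10I14.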

How the results depend on the processing

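The count of 61 rests on the threshold and on the reading of tree 1. It was 195 at a threshold of 0.2, 7 at 0.5, 28 with both technical arrays past 0.3 and 864 with tree 1 turned. It was 11 without tree 1, 19 without tree 2 and 40 without tree 3, and 36 with strips recentred, which was added after the data had been seen. Other centrings, scaling and leaving out 1 array gave 56 to 72 IDs, of which 44 to 60 were among the 61, and dropping the demand on technical arrays gave 62. With tree 1 turned the mean of the trees passed at 0 IDs by limma, against 709 before, both at an adjusted p under 0.05. At an unadjusted p under 0.05 it passed at 85 IDs, against 1298 before. The tree comparison passed at 2693 IDs, at 2629 with the replicate block and at 2695 with a robust variance model. With that model it passed at 63.8% of all IDs and at 54 of 61 members. The mean of the trees passed at 910 IDs with the replicate block. The replicate numbers did not pair the arrays of different trees: correlations of their deviations were -0.031, -0.014 and 0.0023. With tree 1 turned, the difference between the trees that were highest and lowest before turning changed sign in 7 named IDs. It became -0.48 in Q9L12, -0.053 in Q8G7, -0.0068 in Q5L2, -0.017 in Q5B3, -0.83 in Q11E21, -0.015 in Q1O15 and -0.11 in Q10I14. Other trees can then be the extremes. Trees 2 and 3 stayed at -0.68 and 0.64 in Q5L2, and at -0.52 and 0.48 in Q5B3. With tree 1 as deposited and 1 array left out, the difference between the originally highest and lowest tree was 0.60 or more. Its sign could not change, since both arrays of each of those trees lay on the same side of 0.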
